A study of Mus musculus with 15 samples.

Results

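The semaphorins, their plexin receptors and their neuropilin co-receptors were followed in mouse midbrain dopamine neurons. Members were all genes of the deposited tables whose symbol names a semaphorin, a plexin or a neuropilin, and no measured value entered the choice. They were 31 of the 21566 genes in the table of sorted cells, with 7 secreted semaphorins, 13 membrane semaphorins, 2 neuropilins and 9 plexins. The time series table, which listed 10781 genes and none with a mean under 107 normalized reads, held 26 of them. Sema3b, Sema3d, Sema3g, Plxnb3 and Plxnd1 had no row there and their time course was not analysed here.

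All cells came from the ventral midbrain of Pitx3-GFP mice, where GFP, a green fluorescent protein, marks cells that use the Pitx3 gene, which encodes a transcription factor of midbrain dopamine neurons. GFP+ cells and GFP- cells, separated by fluorescence-activated cell sorting at embryonic day 14 (E14), gave 3 libraries each. A time series of GFP+ cells had 3 libraries each from E14, from embryonic day 16 (E16) and from newborn pups (P0), so that 15 libraries fell into 5 groups. The submitters name 3 litters but do not tie a litter to a replicate, and the p-values therefore rest on the spread among these samples, which may be technical.

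Semaphorins are guidance cues that steer growing axons and migrating neurons. Most act through plexins, transmembrane receptors whose cytoplasmic part switches off small GTPases and lets the actin skeleton collapse. Most secreted semaphorins first bind a neuropilin, which holds the ligand but needs a plexin to signal, while membrane semaphorins generally bind plexins directly. Semaphorins are known to attract or repel dopamine axons on their way out of the midbrain.

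The sort was checked on marker genes. Th, which encodes tyrosine hydroxylase, had 7649 to 9333 normalized reads in GFP+ libraries, against 77 to 110 in GFP- libraries, and 10 of 10 dopamine neuron markers were higher in GFP+ cells. The labels call both fractions dopamine neurons, although Th was low in the GFP- libraries. The summed level of 10 radial glia and progenitor markers was 7099 to 8574 normalized reads in GFP+ libraries, against 73615 to 86956 in GFP- libraries. For 6 markers of dividing cells the sum was 271 to 385 in GFP+ libraries and 4141 to 5733 in GFP- libraries, and for 7 blood vessel markers 616 to 699 in GFP+ and 1368 to 1525 in GFP- libraries. Lower in GFP+ cells were also 6 of 7 GABAergic markers (Gad2 was higher), 4 of 4 glutamatergic, 5 of 5 oligodendrocyte lineage, 6 of 6 microglia, 5 of 5 erythroid and 3 of 4 tested meningeal markers. Tyrobp of microglia and Lum of fibroblasts were at 0 in all 3 GFP+ libraries. In such bulk libraries fewer cells of a type and less RNA per cell cannot be told apart. Summed over the listed genes only, libraries held 17369191 to 22374153 reads in the sorted table and 17910017 to 33386535 in the time series table. The time series table lists fewer genes, so these ranges are not like for like.

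At E14 several receptors were higher in GFP+ cells and most secreted ligands lower. The receptors Nrp2, Plxna4, Plxnc1 and Plxnd1 were about doubled in GFP+ cells, with log2 fold changes of 0.98 to 1.20. Most of the secreted ligands were lower there, led by Sema3c at -2.33. Of the 31 members 9 were higher and 10 lower at an adjusted p under 0.05 (limma, Benjamini-Hochberg over 18260 genes), where 30.7% of all genes tested passed, 12.7% as higher and 18.0% as lower. The members' median log2 fold change was -0.04, and that of all genes 0.02. In 22 of 31 members, or 71%, the GFP+ and GFP- libraries did not overlap, against 44.1% of all genes. All 31 members passed the filter of a mean of 5 normalized reads.

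**Figure D1:**
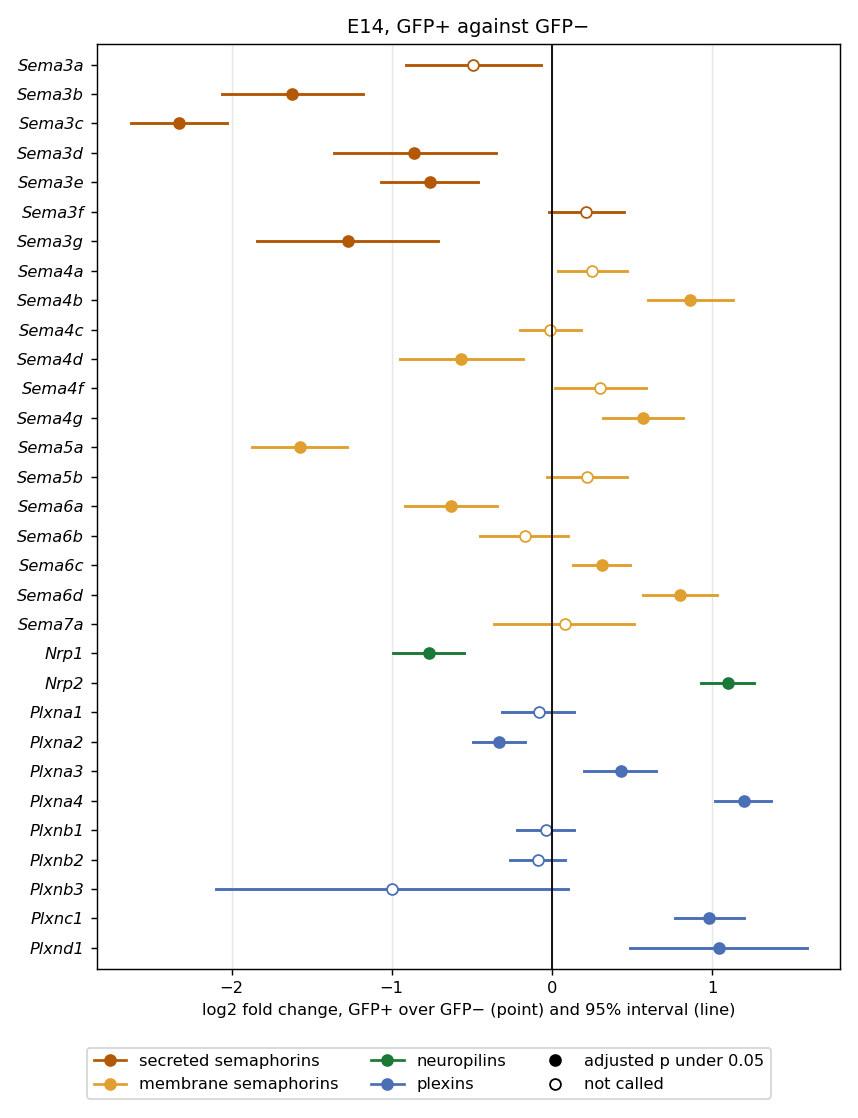
Log2 fold change of each of the 31 members in GFP+ over GFP- cells at E14 (horizontal axis, points) with its 95% interval (lines), coloured by role. Filled points passed an adjusted p of 0.05 in limma, and 5 of the 7 secreted semaphorins are filled and left of 0, while Nrp2 and 4 plexins are filled and right of 0.

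Of the 7 secreted semaphorins 5 were lower in GFP+ cells and 0 were higher, with a median log2 fold change of -0.86. Sema3c, a ligand of both neuropilins, had 298, 223 and 205 normalized reads in GFP+ libraries and 1319, 1111 and 1192 in GFP- libraries. The groups lay far apart, and Sema3c was 5.02-fold lower in GFP+ cells (log2 fold change -2.33, SE 0.14; limma adjusted p = 1.86e-07). Sema3b, a guidance cue for forebrain axons in the mouse, had 38.3, 29.6 and 33 normalized reads in GFP+ libraries and 100, 107 and 108 in GFP- libraries (log2 fold change -1.62, SE 0.20; limma adjusted p = 7.22e-05).

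Sema3e, which binds plexin D1 without a neuropilin, had 146, 154 and 122 normalized reads in GFP+ libraries and 252, 239 and 226 in GFP- libraries, with no overlap (log2 fold change -0.76, SE 0.14; limma adjusted p = 0.00133). Sema3d had 45.5, 45.3 and 30.8 in GFP+ libraries and 67.8, 82.3 and 70 in GFP- libraries, also without overlap (-0.86, SE 0.23; limma adjusted p = 0.0145). Its call was lost without the second GFP- library or the third GFP+ library, at limma adjusted p = 0.0706 and 0.0551. Sema3g, a ligand of Nrp2, was lower at -1.27 from a mean of 19.9 normalized reads in GFP+ cells and 49.8 in GFP- cells.

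Sema3a and Sema3f, the founding ligands of Nrp1 and Nrp2, did not pass. Sema3a had a log2 fold change of -0.49 (95% interval -0.91 to -0.07; limma adjusted p = 0.0724), and it passed without the third GFP- or the first GFP+ library (-0.70 and -0.59; limma adjusted p = 0.0142 and 0.041). Sema3a also passed as lower with a replicate block (limma adjusted p = 0.00483) and in the authors' deposited test (adjusted p = 0.0492). Sema3f had 0.21 (95% interval -0.02 to 0.45, limma adjusted p = 0.161). With each library centred on its median Sema3f passed as higher (0.46, limma adjusted p = 0.00391). With a replicate block it passed too (0.21, limma adjusted p = 0.0499). Per kb of exon, Sema3f made up 56.5% ± 4.88 of the secreted semaphorin level in GFP+ cells and 25.4% ± 2.24 in GFP- cells, and Sema3c 19.2% ± 3.42 and 49.9% ± 2.80 (SD, n = 3 libraries each). The summed level of the 7 ligands was 177 ± 9.64 normalized reads per kb in GFP+ cells and 339 ± 15.5 in GFP- cells. GFP+ cells thus held a smaller secreted semaphorin pool in which Sema3f was the main transcript, and GFP- cells a larger one in which Sema3c was. The progenitor markers and 6 of 7 vessel markers were lower in GFP+ cells too, and their part in the secreted ligands' difference was not tested.

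The membrane semaphorins divided, with 4 of 13 higher, 3 lower and a median log2 fold change of 0.22. Sema6d, a transmembrane ligand of plexin A1, had 1991, 2363 and 2450 normalized reads in GFP+ libraries and 1153, 1359 and 1405 in GFP- libraries (log2 fold change 0.80, SE 0.10; limma adjusted p = 0.000123). Sema4b had 577, 732 and 788 in GFP+ libraries and 377, 390 and 375 in GFP- libraries (0.86, SE 0.12; limma adjusted p = 0.000195). Neither gene's groups overlapped.

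Sema5a, an integral membrane semaphorin with thrombospondin repeats, ran the other way. It had 187, 228 and 158 normalized reads in GFP+ libraries and 565, 566 and 561 in GFP- libraries, a 2.98-fold lower level (log2 fold change -1.57, SE 0.13; limma adjusted p = 3.74e-06). The 3 GFP- libraries were nearly equal and all stood above every GFP+ library. Sema6a, a ligand of plexins A2 and A4, was lower at -0.63, and Sema4d, the ligand of plexin B1, at -0.57. The Sema4d call was lost without any single one of the 3 GFP- libraries or without the first GFP+ library, at limma adjusted p = 0.0597 to 0.0958. Sema4g was higher at 0.57 and Sema6c at 0.31, and the Sema6c call was lost without the third library of either fraction (limma adjusted p = 0.0522 in both).

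The remaining 6 membrane ligands had log2 fold changes of -0.17 to 0.30 and none passed, among them Sema7a at 0.08. Sema7a, the lipid-anchored ligand of plexin C1, had a 95% interval of -0.36 to 0.51.

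The neuropilins moved in opposite directions. Nrp2 had 9367, 8738 and 9379 normalized reads in GFP+ libraries and 4544, 4174 and 4135 in GFP- libraries, so that every GFP+ library was higher (2.14-fold, log2 fold change 1.10, SE 0.08; limma adjusted p = 6.86e-07). Nrp1 had 1310, 1064 and 1120 in GFP+ libraries and 2178, 1943 and 1825 in GFP- libraries, so that every GFP+ library was lower (log2 fold change -0.77, SE 0.10; limma adjusted p = 0.00012). Nrp2 prefers Sema3f and Nrp1 prefers Sema3a, and Nrp1 is also a vascular endothelial growth factor co-receptor.

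Per kb of exon, the Nrp2 to Nrp1 ratio was 5.91, 6.79 and 6.92 in GFP+ libraries and 1.72, 1.78 and 1.87 in GFP- libraries. The ratio was therefore above 1 in both fractions and higher in all 3 GFP+ libraries (log2 difference 1.87; two-sided exact permutation p = 0.1, the smallest 3 against 3 libraries can give, adjusted 0.133 over 12 ratio comparisons). The ratio comparisons, here and below, were not among the planned ones. Each restates the levels of its own genes in the same libraries.

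Promoters of 4 members are shown, the neuropilin pair, which differed in opposite directions, and Sema3c and Sema5a, the secreted and the membrane ligand with the largest fold change between GFP+ and GFP- cells. Each is a window of 300 bases around a RefSeq start on GRCm38.p6, with each GC box (GGGCGG, or CCGCCC on the other strand) in capitals.
Nrp2 (chr1:62703067-62703366, plus strand): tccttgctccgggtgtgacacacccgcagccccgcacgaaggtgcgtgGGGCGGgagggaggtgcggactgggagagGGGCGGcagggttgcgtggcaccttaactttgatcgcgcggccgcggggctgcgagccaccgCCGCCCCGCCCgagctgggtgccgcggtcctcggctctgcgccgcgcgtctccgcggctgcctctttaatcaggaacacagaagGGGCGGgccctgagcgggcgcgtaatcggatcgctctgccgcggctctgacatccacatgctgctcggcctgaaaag
Nrp1 (chr8:128358823-128359122, plus strand): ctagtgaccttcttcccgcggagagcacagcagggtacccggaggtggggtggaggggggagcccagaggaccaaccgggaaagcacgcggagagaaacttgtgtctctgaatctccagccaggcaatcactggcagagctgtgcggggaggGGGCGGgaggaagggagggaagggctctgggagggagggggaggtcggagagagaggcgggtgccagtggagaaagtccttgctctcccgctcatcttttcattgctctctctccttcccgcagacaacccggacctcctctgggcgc
Sema3c (chr5:17574566-17574865, plus strand): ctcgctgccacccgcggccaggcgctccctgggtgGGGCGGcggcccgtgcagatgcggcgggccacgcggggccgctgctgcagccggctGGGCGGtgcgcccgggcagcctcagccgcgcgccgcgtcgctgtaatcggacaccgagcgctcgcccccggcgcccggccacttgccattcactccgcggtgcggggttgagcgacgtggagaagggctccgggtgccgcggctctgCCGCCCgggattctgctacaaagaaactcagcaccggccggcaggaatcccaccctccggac
Sema5a (chr15:32244563-32244862, plus strand): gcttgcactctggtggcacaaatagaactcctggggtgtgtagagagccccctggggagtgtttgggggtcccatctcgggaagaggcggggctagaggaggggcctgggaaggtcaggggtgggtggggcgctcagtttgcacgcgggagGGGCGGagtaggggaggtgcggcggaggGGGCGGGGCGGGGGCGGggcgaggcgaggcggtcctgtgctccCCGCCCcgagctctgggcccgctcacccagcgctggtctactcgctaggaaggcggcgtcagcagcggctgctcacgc

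GC boxes were in the promoters of the receptor that was higher and of the genes that were lower alike. They numbered 5 in Nrp2, 1 in Nrp1, 3 in Sema3c and 5 in Sema5a, with overlapping matches counted. Across the family 27 of 37 RefSeq promoters, from 26 member genes, held at least 1, against 35.7% of 32851 promoters. The members' promoters were also richer in G and C, at a median of 63.7% against 52.7%, with 15 against 7 CG dinucleotides. The letters AAAGGTCA, the half-site motif bound by Nr4a2, and TAATCC, the bicoid-type motif of Pitx3 and related homeodomain factors, were searched on both strands. They were in 0 of 37 member promoters, against 1.51% and 7.06% of all promoters, which says only that these letters are not in these windows.

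Of the 9 plexins 4 were higher in GFP+ cells, 1 was lower and the median log2 fold change was -0.04. Plxna4, a receptor for Sema3a and for Sema6 ligands, had 4116, 4199 and 4330 normalized reads in GFP+ libraries and 1680, 1932 and 1904 in GFP- libraries (2.30-fold, log2 fold change 1.20, SE 0.08; limma adjusted p = 4.68e-07). Plxnc1, the Sema7a receptor, had 4232, 3984 and 4551 in GFP+ libraries and 2421, 2159 and 1893 in GFP- libraries (0.98, SE 0.10; limma adjusted p = 1.29e-05). In both genes every GFP+ library stood well above every GFP- library.

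Plxna3, which serves Nrp2 in Sema3f signalling, had 2431, 2102 and 2553 normalized reads in GFP+ libraries and 1974, 1722 and 1584 in GFP- libraries (log2 fold change 0.43, SE 0.10; limma adjusted p = 0.00818, or 0.0505 without the third GFP+ library). Plxna2 was the plexin that was lower, with 1720, 1734 and 1827 in GFP+ libraries and 2282, 2145 and 2214 in GFP- libraries (-0.33, SE 0.07; limma adjusted p = 0.005). Plxna1 had 2007, 2180 and 2384 in GFP+ libraries and 2522, 2442 and 2011 in GFP- libraries, which overlapped (-0.08, 95% interval -0.31 to 0.14; limma adjusted p = 0.584). The 4 plexin A genes thus showed 2 higher, 1 lower and 1 that did not pass.

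The per kb ratio of Plxna4 to Plxna2 was 2.92 ± 0.0313 in GFP+ cells and 1.01 ± 0.104 in GFP- cells (SD, n = 3 each; log2 difference 1.53, two-sided exact permutation p = 0.1, adjusted 0.133). For Plxna3 to Plxna1 it was 1.24 ± 0.143 in GFP+ cells and 0.871 ± 0.0531 in GFP- cells (log2 difference 0.51, two-sided exact permutation p = 0.1, adjusted 0.133). These pairs were not planned, and their ratios restate the differences of the same genes given above. Plxnd1, the Sema3e receptor known best from blood vessels, had only 80.2, 117 and 70.2 normalized reads in GFP+ libraries and 48.4, 32.4 and 46.3 in GFP- libraries (1.04, SE 0.25; limma adjusted p = 0.00841). It was higher in GFP+ cells, where 6 of 7 blood vessel markers were lower. The other marker, Kdr, did not pass, with means of 351 normalized reads in GFP+ cells and 303 in GFP- cells (0.21, limma adjusted p = 0.219). The part of vessel cells in the Plxnd1 difference was not tested. The B plexins did not pass, with Plxnb1 at -0.04, Plxnb2 at -0.09 and Plxnb3 with a 95% interval of -2.10 to 0.10. Plxnb3 was scarce, with means of 5.62 normalized reads in GFP+ cells and 12.8 in GFP- cells.

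**Figure D2:**
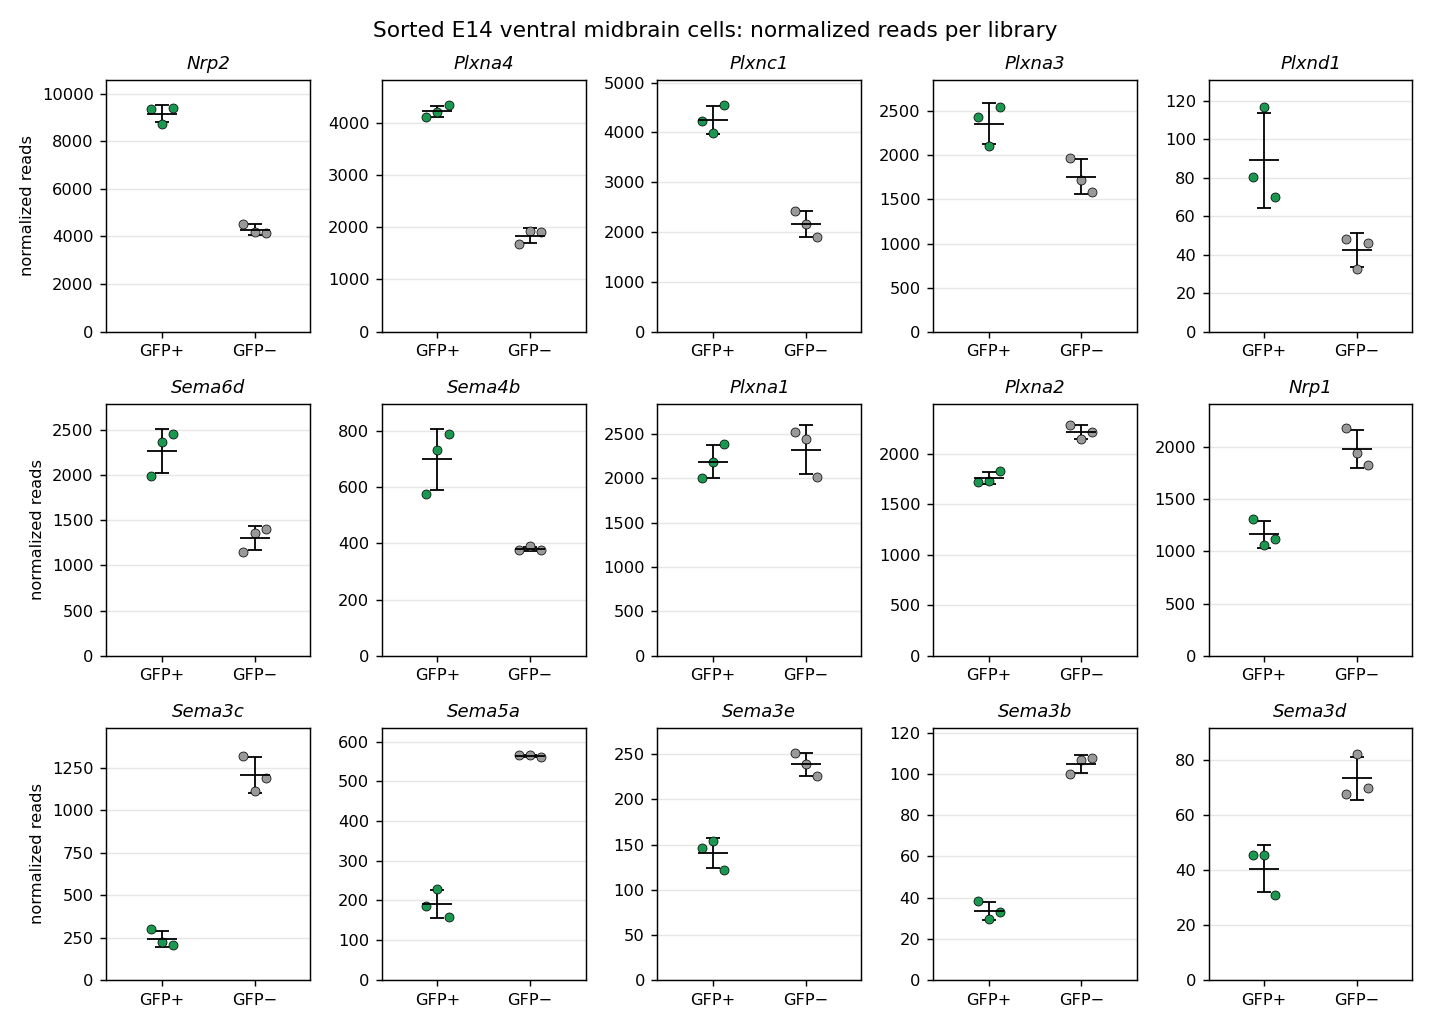
Normalized reads (vertical axis, starting at 0) of 15 members in the 3 GFP+ (green) and 3 GFP- (grey) E14 libraries, with the mean and SD as bars. The panels from Nrp2 to Sema4b lie higher in GFP+ cells, Plxna1 overlaps, and the panels from Plxna2 to Sema3d lie lower.

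The scaling mattered for several member calls in the sorted cells. Centring each library on its median shifted the log2 fold changes of all genes by 0.25 and gave 15 members higher and 8 lower. It ended the calls of Plxna2 (-0.08) and Sema4d (-0.32) and turned Sema4c and Plxnb1 to 0.24 and 0.21, against -0.01 and -0.04. It also made Sema3f, Sema4a, Sema4f and Sema5b pass as higher, at 0.46 to 0.55 (limma adjusted p = 0.00141 to 0.00479). Over all genes it gave 6771 higher and 2518 lower calls, against 2313 and 3286.

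Levels were compared between genes per kb of exon. In GFP+ cells Nrp2 was highest of the 31 members at 774 ± 30.9 normalized reads per kb, followed by Plxnc1 at 510 ± 34.1 and Plxnb2 at 356 ± 24.3, and each stood above the next in every library. Plxna3 at 300 and Plxna4 at 299 overlapped. In GFP- cells Plxnb2, at 380 ± 6.64, and Nrp2, at 362 ± 19.1, came first and overlapped (SD, n = 3 each).

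The plexins together had 2075 ± 103 normalized reads per kb in GFP+ cells and 1645 ± 94.9 in GFP- cells, and the membrane semaphorins 1316 ± 105 and 1150 ± 57.1. Sema6d made up 16.3% ± 0.484 of the membrane semaphorin level in GFP+ cells and 10.7% ± 0.718 in GFP- cells. Receptors thus outweighed secreted ligands in both fractions, and Nrp2 and Plxnc1 led in the dopamine neurons.

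**Figure D3:**
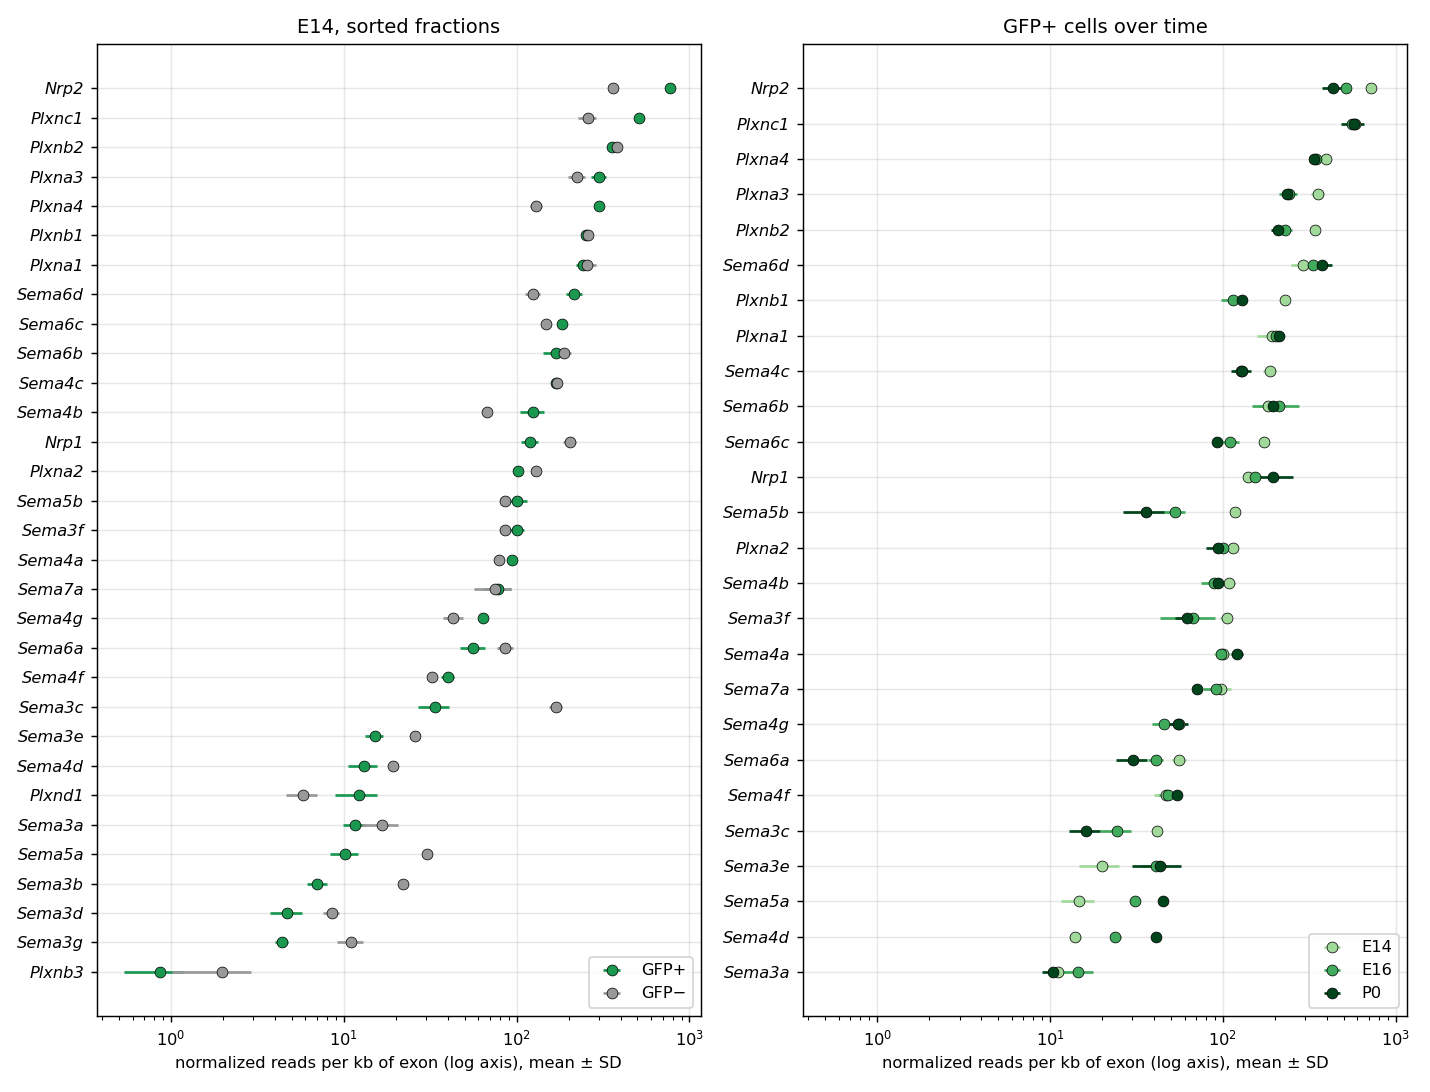
Level of each member as normalized reads per kb of exon (horizontal log axis, mean ± SD of 3 libraries), in GFP+ and GFP- cells at E14 on the left and in GFP+ cells at E14, E16 and P0 on the right. The 2 experiments were normalized separately, so levels are comparable within a panel. Nrp2 and Plxnc1 have the highest means in GFP+ cells of both panels, while Plxnb2 and Nrp2 have the highest in GFP- cells.

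Between E14 and P0 several receptors, but not all, fell in GFP+ cells, and the ligands went both ways. Of 26 members 6 were higher and 13 lower at P0 against E14 (limma, adjusted p under 0.05 over 10781 genes), where 55.7% of all genes passed, 25.1% as higher and 30.6% as lower. Their median log2 fold change was -0.22, and that of all genes -0.05. Of 7 plexins 5 fell and 0 rose, while Sema5a and Sema4d rose about 3-fold and Sema5b fell 3.32-fold. Groups did not overlap in 18 of 26 members, against 65.2% of all genes.

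P0 replicate 3 was the lowest P0 library for 17 of 26 members, and E14 replicate 3 and E16 replicate 1 were the lowest of their ages for 20 and 17. In P0 replicate 3 the summed level of 3 progenitor markers (Fabp7, Vim and Nes) was 4403 normalized reads, against 2676 and 2202 in the other P0 libraries, and Slc17a6 of glutamatergic neurons had 5111, against 8211 and 8294. The sum of 2 GABAergic markers was 2889 there, against 4700 and 4056, and that of 10 dopamine neuron markers 114167, against 82194 and 98232. Their part in the results was not tested. The table held no row for the markers of dividing cells, oligodendrocytes, microglia, vessels, erythroid cells or meninges. Without P0 replicate 3 the counts at P0 against E14 were 5 higher and 12 lower. The progenitor marker sum in the other ages was 4047 to 4306 at E14 and 2737 to 3128 at E16, and it joins genes that went both ways, with Fabp7 higher and Vim and Nes lower at P0 against E14. Of 10 dopamine neuron markers 3 were higher at P0 against E14 (Slc6a3, Ret and Slc18a2), 6 were lower and 1 did not pass. Pitx3, which drives the reporter, was among the lower, with 759 to 877, 469 to 630 and 360 to 394 normalized reads at E14, E16 and P0.

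Among the secreted ligands Sema3c fell and Sema3e rose. Sema3c had 311, 279 and 306 normalized reads at E14, 214, 164 and 145 at E16 and 142, 97.4 and 108 at P0 (P0 against E14 log2 fold change -1.38, SE 0.17; limma adjusted p = 1.45e-05). No P0 library reached the lowest E16 library. Sema3e had 219, 208 and 131 at E14, 420, 308 and 411 at E16 and 509, 437 and 263 at P0 (1.10, SE 0.24; limma adjusted p = 0.00129).

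All Sema3e libraries of E16 and P0 lay above those of E14, and most of the difference was there by E16 (E16 against E14 1.05, SE 0.24; limma adjusted p = 0.00368). Sema3f had 567, 570 and 492 at E14, 237, 477 and 327 at E16 and 369, 324 and 274 at P0 (P0 against E14 -0.76, SE 0.20; limma adjusted p = 0.00471). Its E16 libraries were widely spread, and at E16 against E14 it was -0.70 with all libraries and -0.46 without E16 replicate 1 (limma adjusted p = 0.0138 and 0.0532). Sema3a did not pass at P0 against E14, at -0.10 (95% interval -0.48 to 0.27). Its mean was 153.7 normalized reads at E14, 203 at E16 and 143.9 at P0. Neither E16 against E14 nor P0 against E16 passed (0.37 and -0.48, limma adjusted p = 0.122 and 0.0511). Without E16 replicate 2 both passed (0.57 and -0.68, limma adjusted p = 0.0147 and 0.006). In the authors' deposited test only P0 against E16 passed for Sema3a (-0.50, adjusted p = 0.0309).

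As shares of the 4 measured secreted ligands per kb, Sema3c was 23.7% ± 2.48, 16.8% ± 4.38 and 12.4% ± 2.13 at E14, E16 and P0 and Sema3e 11.2% ± 2.20, 28.2% ± 6.42 and 32.4% ± 4.59 (SD, n = 3 each). Sema3f remained the largest at 58.9%, 44.9% and 47.3%.

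The membrane ligands went both ways, with 4 of 13 higher at P0 against E14, 5 lower and a median of -0.03. Sema5a had 339, 263 and 221 normalized reads at E14, 621, 545 and 581 at E16 and 812, 880 and 842 at P0, stepping up without overlap at each age (log2 fold change 1.64, SE 0.13; limma adjusted p = 2.28e-07). Sema4d had 117, 107 and 99.1 at E14, 169, 185 and 197 at E16 and 323, 293 and 324 at P0, likewise without overlap (1.54, SE 0.13; limma adjusted p = 4.02e-07). Both genes were lower in GFP+ than in GFP- cells at E14.

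Sema5b, the close relative of Sema5a, took the opposite course. It had 798, 864 and 826 normalized reads at E14, 322, 426 and 370 at E16 and 316, 267 and 182 at P0 (log2 fold change -1.73, SE 0.17; limma adjusted p = 1.19e-06). The P0 libraries were all below the E16 libraries, and all E16 libraries were below those of E14. Per kb, Sema5a stood at 14.7 ± 3.18, 31.2 ± 2.04 and 45.2 ± 1.81 normalized reads at E14, E16 and P0, and Sema5b at 117 ± 4.68, 52.6 ± 7.39 and 36.0 ± 9.56 (SD, n = 3 each).

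The Sema6 class also divided. Sema6d had 3328, 3322 and 2550 normalized reads at E14, 3414, 3475 and 3605 at E16 and 3611, 3771 and 4562 at P0 (log2 fold change 0.38, SE 0.11; limma adjusted p = 0.00821). Sema6c had 1061, 1051 and 965 at E14, 555, 718 and 684 at E16 and 554, 574 and 517 at P0 (-0.90, SE 0.11; limma adjusted p = 6.69e-06). Sema6a had 541, 479 and 454 at E14, 371, 391 and 319 at E16 and 325, 214 and 260 at P0 (-0.90, SE 0.15; limma adjusted p = 0.000145).

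The 2 falling Sema6 genes and the rising one each separated P0 from E14 without overlap, and Sema6b at 0.11 did not pass. Sema6d accounted for 20.1% ± 1.85, 25.7% ± 2.37 and 28.1% ± 3.24 of the membrane semaphorin level per kb at E14, E16 and P0 (SD, n = 3 each). Sema4a had 544, 596 and 478 normalized reads at E14, 502, 539 and 536 at E16 and 643, 612 and 711 at P0 (0.28, SE 0.10; limma adjusted p = 0.0324). The Sema4a call was lost without E14 replicate 1 or 3 or P0 replicate 1 or 3, at limma adjusted p = 0.0563 to 0.14. Sema4c fell by 0.55 on the log2 scale, and Sema7a fell by 0.45 but did not pass without E14 replicate 2 or 3 (limma adjusted p = 0.0648 and 0.0529).

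Nrp2 fell with age and Nrp1 did not. The Nrp2 log2 fold change was -0.47 at E16 against E14 and -0.26 at P0 against E16. The later call was lost in 5 of 9 fits that left out 1 library, at limma adjusted p = 0.0507 to 0.14. Nrp2 had 8586, 8751 and 8140 normalized reads at E14, 5989, 5879 and 6554 at E16 and 5823, 5076 and 4500 at P0 (P0 against E14 log2 fold change -0.73, SE 0.09; limma adjusted p = 9.85e-06). Nrp1 had 1428, 1371 and 1271 at E14, 1594, 1358 and 1563 at E16 and 2140, 2333 and 1272 at P0. Its P0 libraries split, with replicate 3 at the E14 level.

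The Nrp1 difference at P0 against E14 was 0.45 (SE 0.17; limma adjusted p = 0.0331) and 0.72 without P0 replicate 3 (limma adjusted p = 3.32e-05). The call was lost without any single E14 library or without P0 replicate 1 or 2, at limma adjusted p = 0.0517 to 0.177. It was thus lost in 5 of 9 fits that left out 1 library. At P0 against E16 the Nrp1 difference was 0.30 with all libraries and 0.57 without P0 replicate 3 (limma adjusted p = 0.18 and 0.000858).

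The Nrp2 to Nrp1 ratio per kb was 4.97, 5.27 and 5.29 at E14, 3.10, 3.58 and 3.46 at E16 and 2.25, 1.80 and 2.92 at P0. No library of a later age reached an earlier one, P0 replicate 3 included (P0 against E14 log2 difference -1.18; two-sided exact permutation p = 0.1, the smallest possible, adjusted 0.133). The Plxna4 to Plxna2 ratio was 3.44 ± 0.133, 3.45 ± 0.179 and 3.65 ± 0.479 at E14, E16 and P0 (SD, n = 3 each), and its P0 against E14 log2 difference was 0.08 (two-sided exact permutation p = 0.7, adjusted 0.764). The Plxna3 to Plxna1 ratio was 1.86 ± 0.198, 1.18 ± 0.0693 and 1.12 ± 0.0136 at the 3 ages (P0 against E14 log2 difference -0.74; two-sided exact permutation p = 0.1, adjusted 0.133).

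The plexins fell or did not pass. Plxnb1, the Sema4d receptor, had 2135, 2257 and 2232 normalized reads at E14, 940, 1273 and 1093 at E16 and 1281, 1290 and 1133 at P0 (P0 against E14 log2 fold change -0.84, SE 0.10; limma adjusted p = 9.52e-06). Plxna3 had 2953, 2879 and 2511 at E14, 1681, 2137 and 1879 at E16 and 1854, 1908 and 1771 at P0 (-0.59, SE 0.09; limma adjusted p = 0.000114). For both genes the E16 and P0 libraries overlapped and lay below all E14 libraries.

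Plxnb2, a Sema4c receptor, fell by 0.71 on the log2 scale (SE 0.09; limma adjusted p = 1.25e-05). Plxna4 had 5778, 5779 and 5170 normalized reads at E14, 4767, 4667 and 5135 at E16 and 4923, 4587 and 4752 at P0 (-0.23, SE 0.07; limma adjusted p = 0.0156), a call lost without E14 replicate 1 or 2 or P0 replicate 2 (limma adjusted p = 0.0632 to 0.0727). Plxna2 had 2100, 1958 and 1862 at E14, 1668, 1741 and 1728 at E16 and 1851, 1577 and 1385 at P0 (-0.31, SE 0.10; limma adjusted p = 0.0148), a call lost without E14 replicate 1 or P0 replicate 3 (limma adjusted p = 0.065 and 0.0726).

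Plxna1 had 2047, 1753 and 1407 at E14, 1690, 1952 and 1904 at E16 and 1906, 1945 and 1849 at P0, which overlapped (0.15, 95% interval -0.09 to 0.39; limma adjusted p = 0.282, or 0.0454 without E14 replicate 1). Plxnc1 did not pass either, at -0.04 (95% interval -0.25 to 0.16). At P0 Plxnc1 had the highest mean level of the 26 members, at 572 ± 87.0 normalized reads per kb, followed by Nrp2 at 433 ± 56.0, Sema6d at 377 ± 48.2 and Plxna4 at 337 ± 11.9, with overlap between neighbours (SD, n = 3 each).

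**Figure D4:**
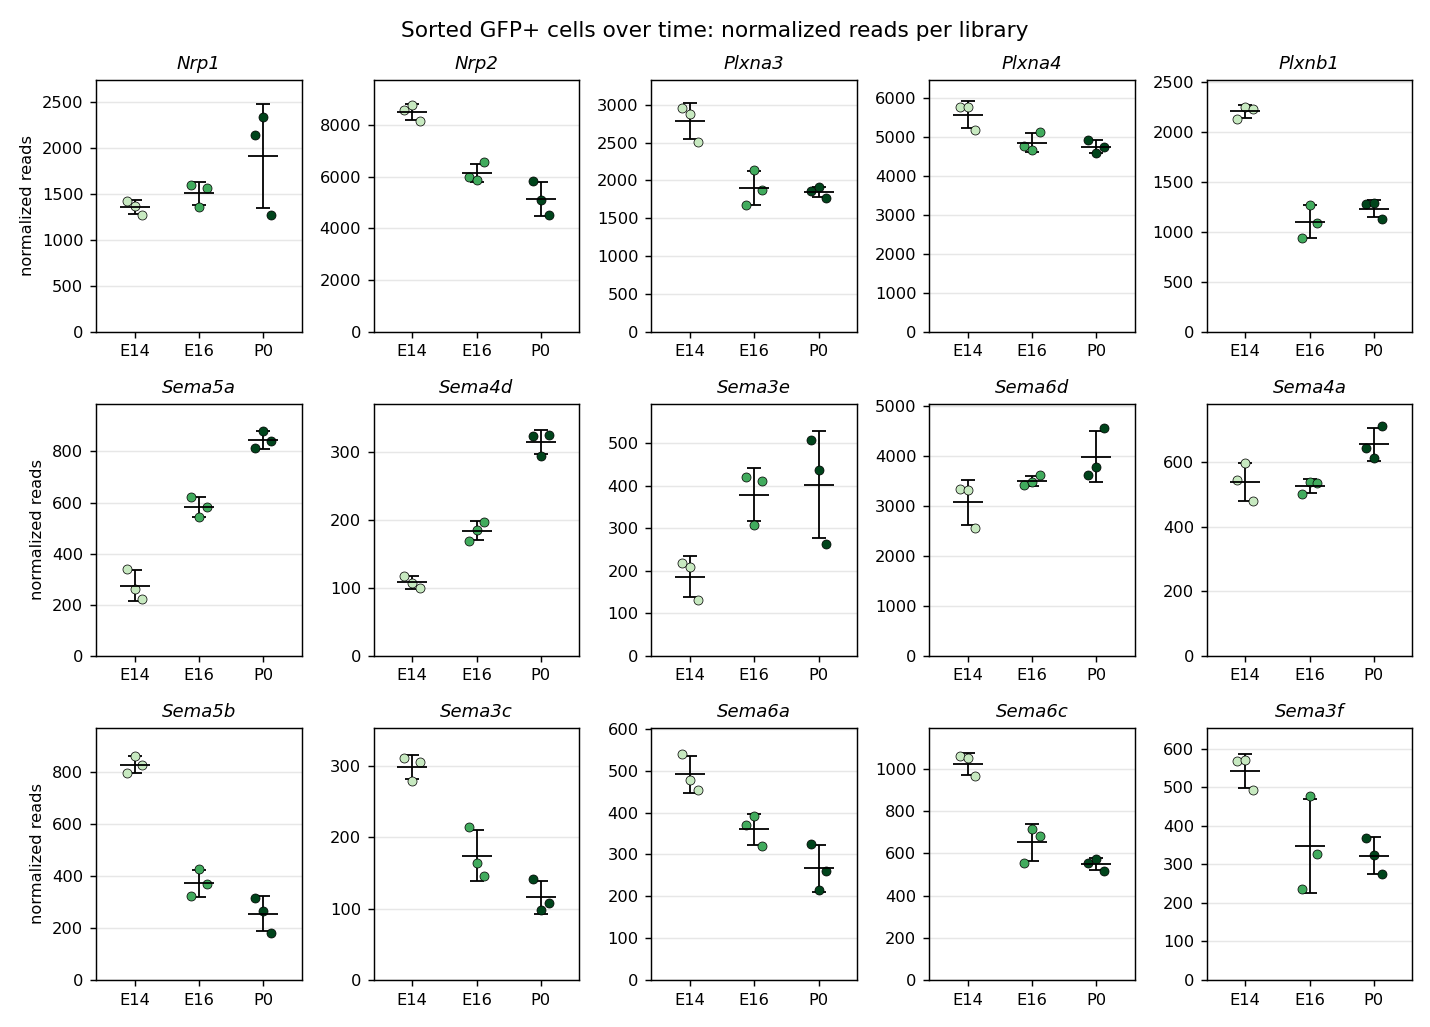
Normalized reads (vertical axis, starting at 0) of 15 members in GFP+ cells at E14, E16 and P0, with 3 libraries per age as points and the mean and SD as bars. Sema5a and Sema4d step up and Sema5b, Sema3c and Sema6a step down with age, while 1 of the 3 Nrp1 libraries at P0 lies at the E14 level.

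Most of the fall in summed plexin level lay between E14 and E16. The 7 plexins together had 2210 ± 108, 1788 ± 84.9 and 1783 ± 140 normalized reads per kb at E14, E16 and P0 (SD, n = 3 each). At E16 against E14, 3 members were higher and 11 lower (limma; 33.0% of all genes passed, 15.2% as higher and 17.8% as lower; median -0.20 against -0.04 for all genes), and 4 of 7 plexins were among the lower. Groups did not overlap in 18 of 26 members, against 46.4% of all genes. At P0 against E16, 3 were higher and 4 lower (33.4% of all genes passed, 16.8% as higher and 16.6% as lower; median -0.01 for members and for all genes), and groups did not overlap in 8 of 26, against 44.8% of all genes. Of the 7 plexins 0 passed in that interval, with log2 fold changes of -0.14 to 0.17.

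The difference between the intervals was tested directly as the change after E16 minus the change before it. It passed for 2 of 26 members as higher and 0 as lower, where 13.6% of all genes passed, 8.00% as higher and 5.62% as lower. Plxnb1 fell by 1.01 on the log2 scale before E16 and was at 0.17 after it (difference 1.18, SE 0.18; limma adjusted p = 0.00119), and the difference was 0.97 to 1.40 when each library was left out in turn. Plxna3 fell by 0.55 before E16 and was at -0.04 after it (difference 0.52, SE 0.16; limma adjusted p = 0.0488). That call was lost without either of E14 replicates 1 and 2, E16 replicates 1 and 3 or P0 replicates 1 and 2, at limma adjusted p = 0.0769 to 0.197. Without E16 replicate 2 or without P0 replicate 3 the members that passed as higher numbered 5, and those that passed as lower 1 and 0.

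In the later interval Sema4d (0.77) and Sema5a (0.54) kept their calls in all 9 fits that left out 1 library. The calls of Sema4a, Sema3c, Sema5b, Sema6a and Nrp2 there were each lost in 3 to 5 of those fits, at limma adjusted p = 0.0507 to 0.147. Without P0 replicate 3 the 4 lower members numbered 0, without P0 replicate 2 they numbered 1 and without E16 replicate 3 they numbered 2, while 5 were higher without E16 replicate 2. In the earlier interval Plxna4 (-0.20) was lost in 7 of 9 such fits and Sema6a (-0.45) in 3, at limma adjusted p = 0.0513 to 0.172, and both were lost with TMM factors and with median centring.

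**Figure D5:**
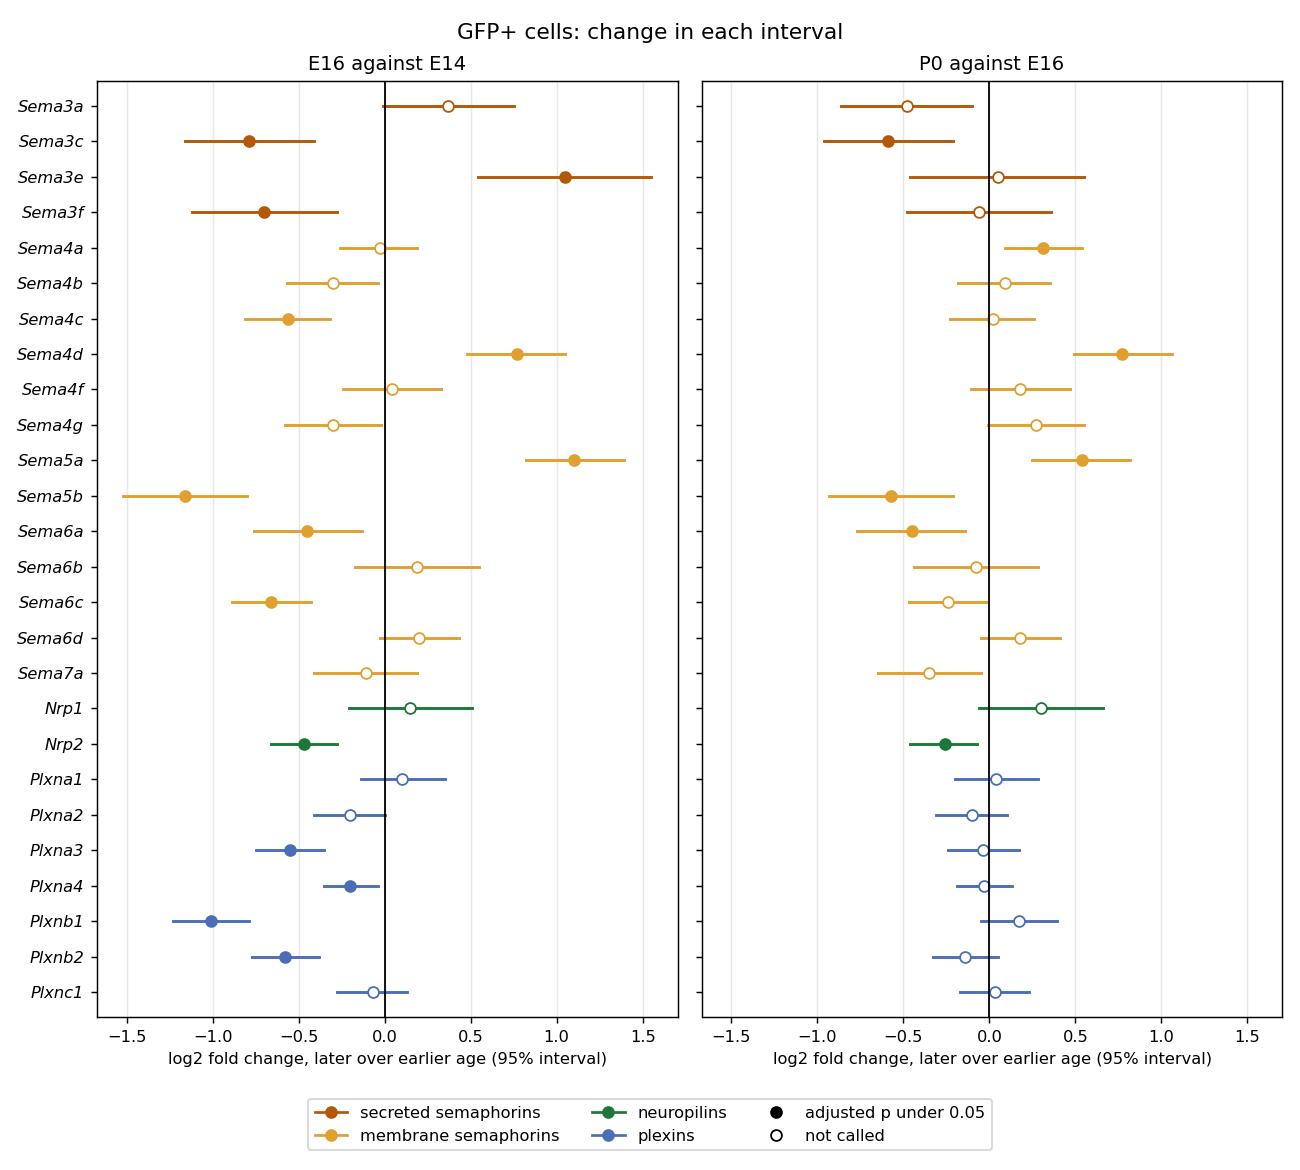
Log2 fold change of the 26 members in GFP+ cells at E16 against E14 (left) and at P0 against E16 (right), with 95% intervals as lines and members ordered by role. Filled points passed an adjusted p of 0.05 in limma, and 4 of the 7 plexins are filled on the left and 0 on the right.

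The 2 experiments were set side by side for each member. Of the 9 members higher in GFP+ cells, Sema6c, Nrp2, Plxna3 and Plxna4 were lower at P0 against E14, Sema6d was higher, Sema4b, Sema4g and Plxnc1 did not pass and Plxnd1 had no row. Of the 10 lower in GFP+ cells, Sema3e, Sema4d, Sema5a and Nrp1 were higher at P0, Sema3c, Sema6a and Plxna2 were lower and 3 had no row. Of all genes in the time series, 25.1% passed as higher and 30.6% as lower at P0 against E14. Their shares among genes that differed between the fractions were not computed. Some fits that left out 1 library lost the sorted-cell calls of Sema4d, Sema6c and Plxna3. The same held for the P0 against E14 calls of Nrp1, Plxna2 and Plxna4. Whether the calls of the 2 experiments go together was not tested.

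Other genes of the pathway were taken from a list of 52 partners and effectors. At E14, 12 were higher and 8 lower in GFP+ cells (limma, adjusted p under 0.05), where 12.7% of all genes passed as higher and 18.0% as lower. Their median log2 fold change was 0.10, and that of all genes 0.02. The rises were led by Met, a receptor tyrosine kinase that associates with plexin B1 (2.20), Mical2, an actin oxidase of the plexin effector family (1.95), and Chl1, an adhesion molecule that partners Nrp1 (0.86). Of the 5 collapsin response mediator genes on the list, a group picked after its values were seen, Dpysl2, Dpysl3 and Dpysl5 were higher at 0.31, 0.42 and 0.52. Dpysl4 at 0.05 and Crmp1 at 0.21 did not pass (limma adjusted p = 0.731 and 0.214). Lower were Erbb2, another kinase partner of B plexins (-4.45), the GTPase target Rras (-2.39, at a mean of 2 normalized reads in GFP+ cells) and Itga1, an integrin chain (-2.01).

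At P0 against E14, 6 of 43 pathway genes were higher and 15 lower, where 25.1% of all genes passed as higher and 30.6% as lower. Their median was -0.09 and that of all genes -0.05. Rnd1, a GTPase that binds plexins, Mical2 and the syndecan Sdc3 were higher at 1.21, 1.19 and 0.65. Lower were Rnd3, a GTPase of the same group, with means of 1869 normalized reads at P0 and 3752 at E14, Mical1, which binds plexin A (-0.99), and Ptk7 (-0.86). The effector relatives Mical1 and Mical2 thus moved in opposite directions both between fractions and over time, with Mical1 at -0.67 in GFP+ against GFP- cells, a pair chosen after its values were seen.

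Circular RNAs named after members were sparse. In the time series circ_02064_Nrp1 had 14 back-splice reads, all in 1 E14 library, circ_03727_Sema5b 6 reads in 2 E14 libraries, circ_04862_Nrp2 4 reads and circ_07472_Plxnc1 2 reads. In the GFP- libraries circ_03128_Plxna4 had 3 reads in 1 library. None reached a mean of 2 normalized reads, and no group comparison of them was made.

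In GENCODE M21 on GRCm38, Nrp2 lies at chr1:62703285-62818695 on the plus strand, Plxnb1 at chr9:109095389-109119917 on the plus strand, Plxna4 at chr6:32144268-32588192 and Plxnc1 at chr10:94790866-94944835 on the minus strand. Reads of some members could not be kept apart from those of overlapping genes, since use of strand was not given in the sources used here. Plxna1 shares 970 exon bases with other genes, Sema4c 334, Plxnb1 257, Plxnc1 115, Plxna4 110, Nrp1 80 and Sema4a 73.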

How the data were processed

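RNA was extracted from sorted cells with a kit that keeps small RNAs, ribosomal RNA was depleted and libraries were made with ScriptSeq v2, per the labels' protocols. The authors deposited a signal value per gene, normalized reads scaled by 1 factor per library, and, per the file headers, results of their own test (p-values, adjusted p and log2 fold changes). Builds GRCm38 and mm10 and the tools DESeq2, TopHat2 and Trim Galore come from the submitters' processing notes. The read counter and use of strand are not given in the sources used here. In each library the deposited values were whole multiples of 1 step within 0.1. This gave the depth over the listed genes, 17369191 to 22374153 reads in sorted libraries and 17910017 to 33386535 in the time series. Reads carried no molecular identifiers, so depth covers counting error only.

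Genes with a mean of at least 5 normalized reads entered a two-sided limma-trend test of log2(normalized reads + 1), with limma 3.58.1 in R 4.3.3, and p-values were Benjamini-Hochberg adjusted over all genes. Fold changes are on that scale, which understates low genes. The 6 sorted libraries were fitted alone and the 9 time series libraries in 1 fit, since the tables were normalized separately. edgeR 4.0.16 on recovered reads called 5541 genes in the sorted comparison (2154 higher, 3387 lower), against 5599 by limma. Levels per kb used exon lengths of GENCODE M21. Alternatives were other pseudocounts, filters, TMM factors, median centring, a replicate block, each library left out, and the authors' deposited tables, the last chosen after seeing the data. Column numbers of the sorted table differ from the numbers in the sample labels, so its columns were assigned to fractions only.

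Members were set by symbol and no measured value entered, but they and the lists were chosen with earlier results of these data known. Per-library values were given for members past the threshold without overlap and with a mean of at least 50, up to 6 per direction and comparison, and for neuropilins and plexin A genes. Sema3g is named below that mean as a secreted ligand.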

Additional observations from a re-analysis of the deposited data

Results flagged for a closer look

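A pair of plexins changed differently in the 2 intervals of the time series by a test of the difference itself (the change from E16 to P0 minus the change from E14 to E16, limma, adjusted over 10781 genes). They were 2 of 26 members, where 13.6% of all genes passed. For Plxnb1 the difference was 1.18 on the log2 scale (SE 0.18; adjusted p = 0.00119), with all P0 and E16 libraries below all E14 libraries. For Plxna3 it was 0.52 (SE 0.16, adjusted p = 0.0488), and 0.49 and 0.48 with TMM factors and median centring (adjusted p = 0.0652 and 0.0626). The Plxna3 call was also lost in 6 of 9 fits that left out 1 library, at limma adjusted p = 0.0769 to 0.197.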

How the results depend on the processing

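Median centring gave 15 members higher in GFP+ cells, against 9, and turned Sema4c (0.24) and Plxnb1 (0.21); the count of 2 members that differed between the intervals was 1 with TMM factors and 1 with median centring. Leaving out each library in turn gave 7 to 9 members higher and 8 to 10 lower in GFP+ cells. At P0 against E14 it gave 4 to 6 higher and 11 to 13 lower, at E16 against E14 3 to 4 and 9 to 12, at P0 against E16 2 to 5 and 0 to 4, and for the difference between intervals 1 to 5 and 0 to 1. Calls kept in every such fit were 15 of 19 in the sorted cells, 14 of 19 at P0 against E14, 11 of 14 at E16 against E14 and 2 of 7 at P0 against E16. Other pseudocounts left the counts of members in all 5 comparisons as they were. Other filters and edgeR, run on the sorted cells, and the authors' deposited tables, which cover the 4 group comparisons, left the counts within 1.5 times. The filters removed no gene of the time series.

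With a replicate block the members were 13 higher and 11 lower in the sorted cells and 6 and 13 at P0 against E14, and all genes called in the sorted cells were 8466, against 5599. Whether the replicate numbers pair the libraries was not settled. In the sorted table, by its column numbers, the deviations of same-numbered libraries correlated at 0.0976 to 0.367. Those of differently numbered libraries correlated at -0.297 to 0.229 there, and the third GFP- library correlated best with the second GFP+ library. In the time series the ranges were -0.113 to 0.245 for the same number and -0.3 to 0.149 for different numbers.

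The planned fits of circular RNAs were not run because none named after a member reached a mean of 2 normalized reads. The number of libraries limits every comparison, and 5 members without a time series row could not be followed with age.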
